A study of Mus musculus with 16 samples.

Results

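Creatine kinases and the genes that supply their substrate were followed in RNA from epithelial cells of the mouse caecum, a blind sac of the hindgut where bacteria ferment fibre to butyrate. The group holds 5 of the 24091 genes in the expression table, matched by symbol: *Ckb*, *Ckmt1*, *Slc6a8*, *Gatm* and *Gamt*. The genes were selected on the TPM of *Ckb*, which is higher with tributyrin than with mock gavage, so the values of tributyrin against mock gavage are given for these genes as a description with no test. The 9 RNA libraries, all from C57BL/6 mice, a common inbred strain, form 3 groups of 3. In the first, mice received 10 g/L Splenda, a sweetener used as the vehicle, together with 1 g/L of the antibiotic ampicillin, and on day 7 were gavaged with tributyrin, the butyrate ester of glycerol, which lipases split to free butyrate. The second received the same Splenda and ampicillin and a mock gavage of 25% glycerol. The third received Splenda without ampicillin and the same mock gavage. Tissue was taken 6 h after the gavage in each group, so Splenda and a gavage are common to all 3. Whether each library is a mouse of its own is not stated in the labels, and p-values therefore measure the spread among these samples alone, part of which can be technical. Age is not given in the labels used here.

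Creatine kinases move a phosphate group between ATP and creatine. The mitochondrial enzyme, encoded in this tissue mainly by *Ckmt1*, loads creatine with phosphate where ATP is made, and the cytosolic brain-type enzyme encoded by *Ckb* turns phosphocreatine back into ATP where it is spent. Creatine reaches a cell through the sodium-coupled carrier *Slc6a8*, or is made in a pair of steps: *Gatm* joins arginine and glycine to guanidinoacetate, and *Gamt* methylates that product with S-adenosylmethionine. Most synthesis in the body takes place in kidney, pancreas and liver, and the gut epithelium is known mainly as a tissue that takes creatine up. In intestinal epithelium the cytosolic kinases have been described as targets of hypoxia-inducible factor and as neighbours of the junctional actin belt.

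The promoters of *Ckb* and *Gamt*, the members with the largest ratios of tributyrin to mock gavage, and of *Ckmt1*, which was lower, are shown so that their makeup can be compared. Each runs 5′ to 3′ on the gene's strand, from 250 bases before an annotated transcript start to 50 bases from it on (RefSeq, build GRCm38.p6). They are chr12:111672289-111672588, minus strand, for *Ckb*, chr10:80260963-80261262, minus strand, for *Gamt*, and chr2:121357526-121357825, plus strand, for the first of 2 *Ckmt1* starts. Capitals mark matches on either strand to the CCAAT box, to the TATA box written as TATAAA, to ACGTG, a core of hypoxia response elements, or to the GC box written as GGGCGG.
Ckb: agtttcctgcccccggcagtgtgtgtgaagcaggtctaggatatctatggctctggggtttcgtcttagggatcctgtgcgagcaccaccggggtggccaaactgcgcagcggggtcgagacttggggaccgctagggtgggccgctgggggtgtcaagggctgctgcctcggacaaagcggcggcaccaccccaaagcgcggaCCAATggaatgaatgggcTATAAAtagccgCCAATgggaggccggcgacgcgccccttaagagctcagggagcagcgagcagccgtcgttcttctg
Gamt: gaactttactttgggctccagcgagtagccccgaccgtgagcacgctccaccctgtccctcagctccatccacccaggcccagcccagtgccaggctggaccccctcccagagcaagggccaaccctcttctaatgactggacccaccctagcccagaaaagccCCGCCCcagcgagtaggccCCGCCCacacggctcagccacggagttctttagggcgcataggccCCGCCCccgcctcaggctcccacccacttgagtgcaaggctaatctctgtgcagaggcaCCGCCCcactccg
Ckmt1: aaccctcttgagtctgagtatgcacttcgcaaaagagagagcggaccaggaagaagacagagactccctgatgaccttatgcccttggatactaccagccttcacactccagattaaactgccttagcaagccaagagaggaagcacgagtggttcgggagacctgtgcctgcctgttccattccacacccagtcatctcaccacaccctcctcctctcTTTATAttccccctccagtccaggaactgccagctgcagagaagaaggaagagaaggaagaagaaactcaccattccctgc

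The *Ckb* window holds CCAAT at 46 and 16 bases before the start and TATAAA between them, at 28 bases. The *Gamt* window holds no CCAAT or TATAAA match but 4 of GGGCGG, all on the other strand, at 86, 67 and 22 bases before the start and 38 bases into the transcript. The *Ckmt1* window holds TATAAA on the other strand, 31 bases before the start. ACGTG was found in none of the 3. The *Gatm* window, not shown, holds ACGTG on the gene's strand, 94 bases before the start, and CCAAT at 190 and 55 bases. The window of the second *Ckmt1* start, also not shown, holds CCAAT on the other strand at 242 bases and no other match. G and C make up 58.3% of it. Among 32851 such windows of the genome, 37.4% hold CCAAT, 13.6% TATAAA, 19.6% ACGTG and 35.7% GGGCGG, on either strand. G and C make up 63.0% of the *Ckb* window, 66.0% of the *Gamt* window and 52.0% of the *Ckmt1* window, against a median of 52.7% over all windows. A match is a description of the letters only.

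The unit is TPM, a relative transcript abundance that allows for transcript length, so levels can be compared between genes, but the depth of each library is unknown. Short RNA entries took 2.83% to 3.30% of TPM with tributyrin, 3.31% to 6.00% with ampicillin and mock gavage, and 4.19% to 6.30% with vehicle, and rescaling without them is among the alternatives tried. Each difference is one of log2(TPM + 1) and carries its SE, and for low genes the added 1 makes it smaller than the change in TPM. Tests were made with limma over the 12155 genes whose mean reached 1 TPM, and the threshold for a call was an adjusted p (Benjamini-Hochberg) below 0.05. Of the 5 members 4 passed this filter, each with a mean over 1 TPM in every group, and *Gatm*, with a mean of 0.531 TPM, did not. Other values are mean ± SD with n = 3 libraries.

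*Ckmt1* (gene ID 12716, chromosome 2, 121357773 to 121363737, build mm10) was the most abundant member in each group. It averaged 785 ± 61.9 TPM with ampicillin and tributyrin, 1102 ± 30.3 TPM with ampicillin and mock gavage, and 466 ± 8.45 TPM with vehicle and mock gavage. By mean TPM it was number 214, 161 and 339 of all 24091 genes in those groups, in the same order. *Slc6a8* (gene ID 102857, chromosome X, 73673133 to 73682502) and *Ckb* (gene ID 12709, chromosome 12, 111669355 to 111672338) came next, and they changed places. *Ckb* stood above *Slc6a8* with tributyrin, by a ratio of 1.60, while in the other groups *Slc6a8* was the higher, by 2.48 with ampicillin and mock gavage and by 2.28 with vehicle. The synthesis genes were low: *Gamt* (gene ID 14431, chromosome 10, 80258151 to 80261025) averaged 1.22 to 3.96 TPM and *Gatm* (gene ID 67092, chromosome 2, 122594473 to 122611277) 0.363 to 0.656 TPM. In each group all neighbours in this order were apart in every library. The carrier was thus more abundant than either synthesis gene in each of the 9 libraries.

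**Figure D1:**
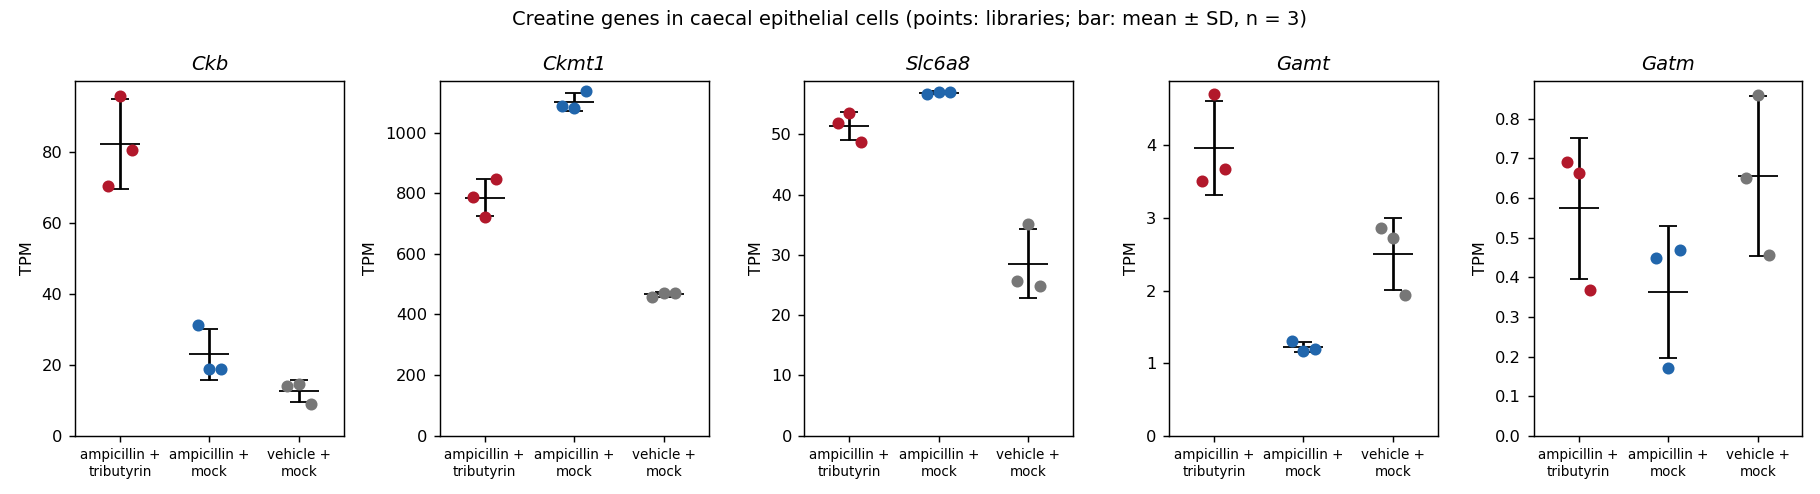
TPM (vertical axes, each from 0) of the 5 genes in the 9 libraries, by group; points are libraries and bars the mean ± SD. *Ckb* steps up from right to left, *Ckmt1* peaks in the middle group at 1102 TPM, *Slc6a8* is near 51.4 and 56.9 TPM in both ampicillin groups, and *Gamt* is lowest in the middle group at 1.22 TPM.

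Ampicillin alone, against vehicle with both on mock gavage, raised both kinases and the carrier and lowered *Gamt*. *Ckmt1* stood at 1089, 1080 and 1136 TPM in ampicillin replicates 1 to 3, against 457, 472 and 470 TPM in the vehicle replicates. The groups lay far apart, at 2.36 times the vehicle mean, a log2 difference of 1.24 ± 0.060 (95% interval 1.10 to 1.38, limma adjusted p = 9.11e-06). *Slc6a8* stood at 56.7, 57.1 and 57.0 TPM with ampicillin, against 25.7, 35.1 and 24.9 TPM with vehicle. The ampicillin libraries were almost level and the vehicle libraries spread, with replicate 2 the highest, and the difference was 0.99 ± 0.114 (limma adjusted p = 0.000592). In bulk RNA, more cells of a type and more RNA per cell cannot be told apart.

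*Ckb* stood at 31.2, 18.7 and 18.9 TPM in the ampicillin replicates with mock gavage, against 14.1, 14.5 and 9.07 TPM in the vehicle replicates. The groups did not overlap, but ampicillin replicate 1 was well above its fellows and vehicle replicate 3 well below its own. The difference of 0.81 ± 0.231 (95% interval 0.28 to 1.34) passed the threshold at limma adjusted p = 0.0379, and this call was fragile. It was lost without vehicle replicate 1 (0.0599) or 3 (0.110), without ampicillin replicate 1 (0.0958), 2 (0.0520) or 3 (0.0533), without tributyrin replicate 3 (0.0560), with no filter on low values (0.0660) and with only these 2 groups in the fit (0.0737), while the difference stayed between 0.58 and 0.93 when any 1 library was left out.

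*Gamt*, which completes creatine, went the other way. It stood at 1.30, 1.17 and 1.19 TPM with ampicillin, against 2.86, 2.72 and 1.94 TPM with vehicle. The ampicillin libraries lay together and below all vehicle libraries, at 48.8% of the vehicle mean (-0.65 ± 0.130, limma adjusted p = 0.00884). *Gatm*, which starts the synthesis, stood at 0.449, 0.172 and 0.468 TPM with ampicillin, against 0.651, 0.861 and 0.456 TPM with vehicle. Its groups overlapped, and with no filter on low values, where it could be tested, its limma adjusted p was 0.217.

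Of the 4 members tested for ampicillin, 3 were thus called higher and 1 lower. Over all 12155 genes, 11.0% were called higher and 10.2% lower, and libraries did not overlap for 40.8%, which compares with 4 of 4 members. This comparison shares its ampicillin libraries with the one that led to the choice of these genes. Over all tested genes the median difference was 0.02.

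Tributyrin, against mock gavage in ampicillin-treated mice, is the contrast for which the genes were chosen, and the following values describe it. *Ckb* stood at 70.3, 95.6 and 80.5 TPM with tributyrin, against 31.2, 18.7 and 18.9 TPM with mock gavage. The lowest tributyrin library held more than 2 times the TPM of the highest mock library, and the ratio of means was 3.58 (log2 difference 1.82 ± 0.231). That was the 40th highest difference of 12155. *Gamt* stood at 3.51, 4.71 and 3.67 TPM with tributyrin, against 1.30, 1.17 and 1.19 TPM with mock gavage. Here too no library overlapped, and the ratio of means was 3.24 (1.15 ± 0.130, the 119th highest difference). For both genes tributyrin replicate 2 was the highest of its group.

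*Ckmt1* differed in the opposite direction, at 786, 723 and 847 TPM with tributyrin, against 1089, 1080 and 1136 TPM with mock gavage. The tributyrin mean was 71.3% of the mock mean (-0.49 ± 0.060), the 312th lowest difference. *Slc6a8* stood at 51.9, 53.5 and 48.8 TPM with tributyrin, against 56.7, 57.1 and 57.0 TPM with mock gavage. The tributyrin libraries all lay below, but by little, at 90.3% of the mock mean (-0.15 ± 0.114). *Gatm* stood at 0.690, 0.663 and 0.368 TPM with tributyrin, against 0.449, 0.172 and 0.468 TPM with mock gavage, and the groups overlapped. The cytosolic and the mitochondrial kinase thus differed in opposite directions, while the carrier differed by little. Over all genes 15.6% were called higher and 7.54% lower in this contrast, and libraries did not overlap for 42.6%. The split is sensitive to scaling: 1902 genes were called higher and 917 lower, against 1466 and 1647 with quantile normalization. No member above the filter changed direction with quantile normalization or with rescaling without short RNA, and *Gatm* was not fitted under these.

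**Figure D2:**
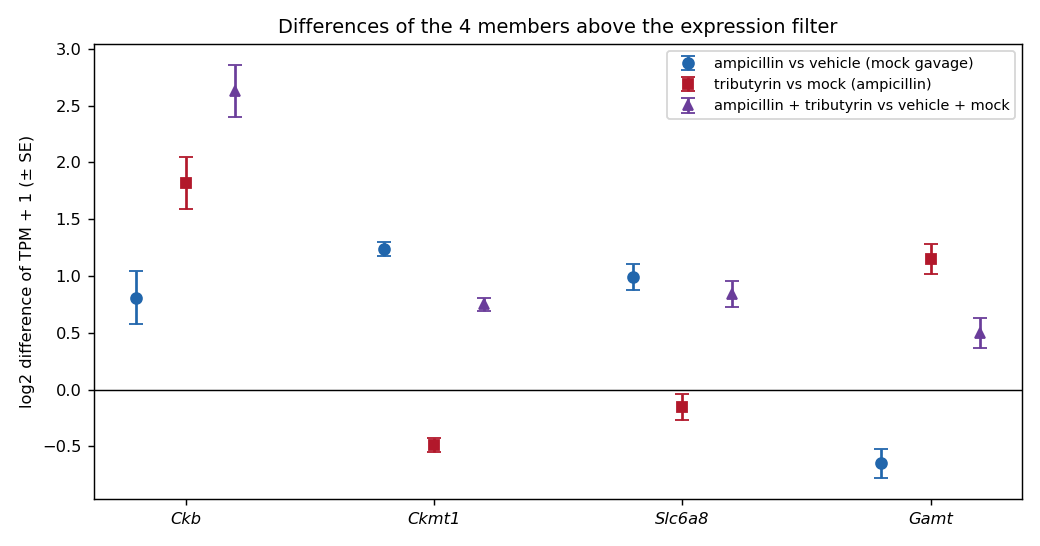
Log2 differences of TPM + 1 (vertical axis, ± SE) of the 4 members above the expression filter in the 3 comparisons. *Ckb* is above 0 in each comparison, *Ckmt1* and *Slc6a8* are near or above 0.75 against vehicle and below 0 for tributyrin against mock gavage, and *Gamt* is at -0.65 for ampicillin and at 1.15 for tributyrin.

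Ampicillin with tributyrin was last compared with vehicle and mock gavage, which asks where the genes stood relative to mice without the antibiotic. *Ckmt1*, at 786, 723 and 847 TPM with ampicillin and tributyrin, remained above the 457, 472 and 470 TPM of the vehicle libraries (0.75 ± 0.060, limma adjusted p = 0.000161), and no library overlapped. *Slc6a8*, at 51.9, 53.5 and 48.8 TPM, was likewise above the 25.7, 35.1 and 24.9 TPM of the vehicle libraries (0.84 ± 0.114, limma adjusted p = 0.00151).

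*Gamt*, at 3.51, 4.71 and 3.67 TPM with ampicillin and tributyrin, was above the 2.86, 2.72 and 1.94 TPM with vehicle (0.50 ± 0.130, limma adjusted p = 0.0223). That call was lost without vehicle replicate 3 (0.0629) or tributyrin replicate 2 (0.0735), with quantile normalization (0.0610) and with only these 2 groups in the fit (0.0566). *Ckb*, chosen for its tributyrin libraries and so not tested here, had 6.55 times the vehicle mean (2.63 ± 0.231, the 18th highest difference of 12155). *Gatm* overlapped between the groups. Libraries did not overlap for *Ckmt1*, *Slc6a8* and *Gamt*, nor for 41.7% of all genes. Those of *Ckb* did not overlap either, but it was chosen for its tributyrin libraries and is not set beside that share. Against vehicle 19.1% of all genes were called higher and 9.21% lower, or 2325 and 1119 genes, against 1683 and 1663 with quantile normalization. This comparison shares libraries with both others, so the values stand side by side and are not independent.

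**Figure D3:**
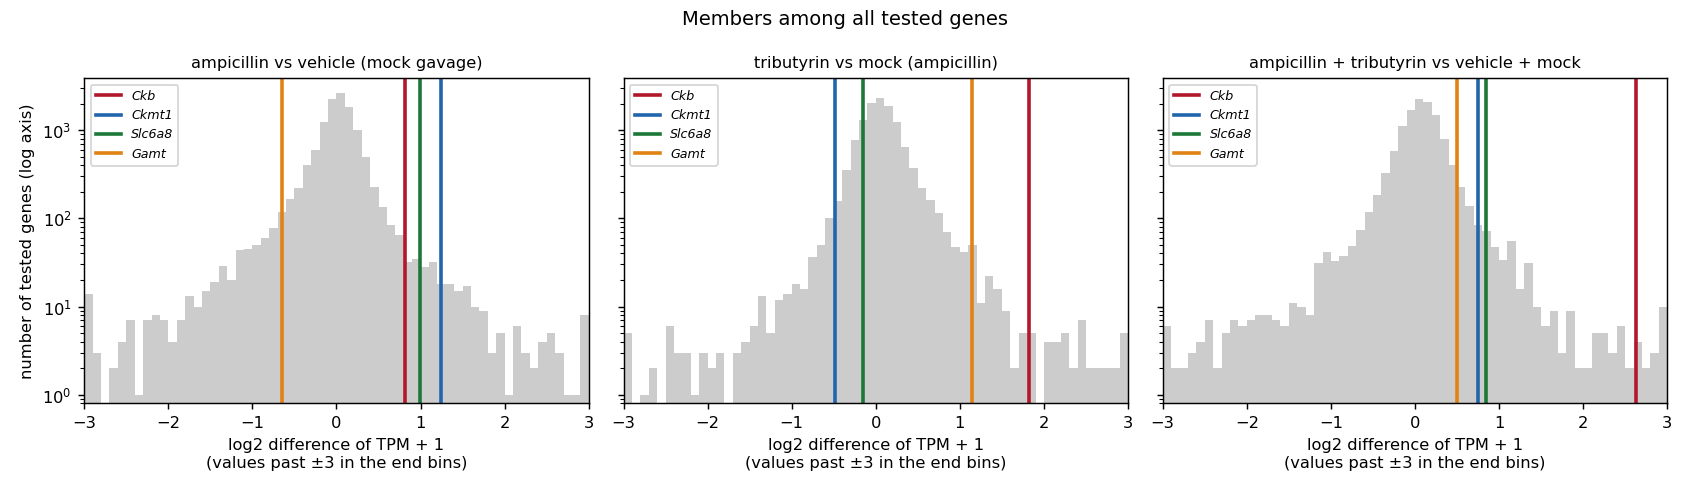
Number of tested genes (vertical log axis) by log2 difference of TPM + 1 (horizontal axis) in the 3 comparisons, with the 4 members as vertical lines. *Ckb* lies in the right tail for tributyrin against mock gavage (1.82) and against vehicle (2.63), and *Ckmt1* is at 1.24 for ampicillin and at -0.49 for tributyrin against mock gavage.

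The balance of the kinase family followed from these levels. The muscle-type cytosolic gene *Ckm* was at or under 0.0652 TPM in each library and the sarcomeric mitochondrial gene *Ckmt2* between 0.875 and 2.39 TPM, so *Ckb* and *Ckmt1* made up nearly all creatine kinase transcripts. The 4 kinase genes summed to 858, 820 and 929 TPM with ampicillin and tributyrin, to 1122, 1101 and 1158 TPM with ampicillin and mock gavage, and to 472, 488 and 480 TPM with vehicle. The share of *Ckb* in that sum was 8.19%, 11.7% and 8.66% with tributyrin, 2.78%, 1.70% and 1.64% with ampicillin and mock gavage, and 2.98%, 2.97% and 1.89% with vehicle. The share thus overlapped between the mock-gavaged groups, in which both kinases differed, and the tributyrin libraries stood apart. *Ckmt1* outnumbered *Ckb* by 9.75 ± 1.93 with tributyrin, 50.9 ± 13.9 with ampicillin and mock gavage and 39.0 ± 11.1 with vehicle. These values rest on the level that led to the choice of *Ckb* and are a description.

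**Figure D4:**
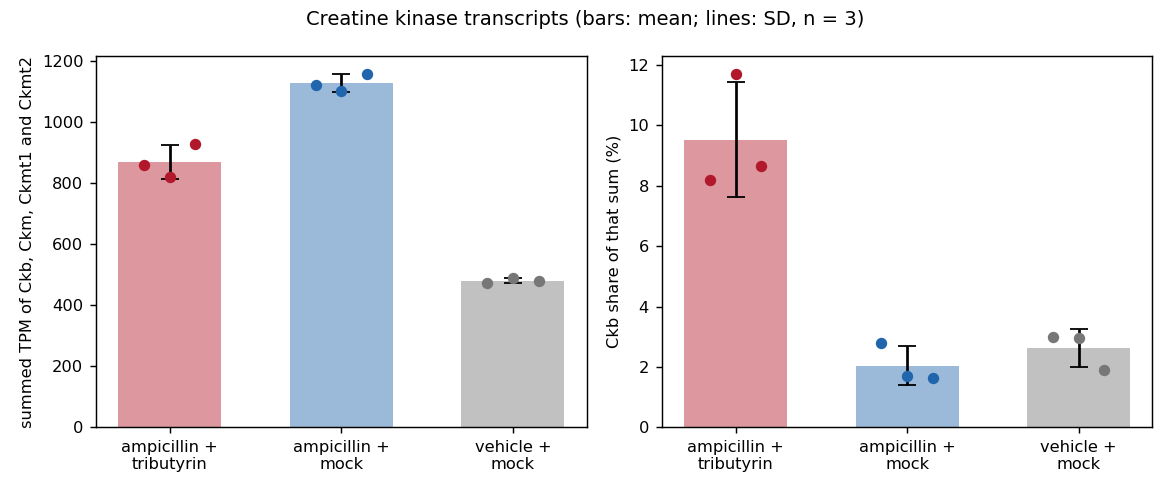
Left, summed TPM of the 4 creatine kinase genes; right, the share of *Ckb* in that sum in percent; bars are group means, lines the SD and points the libraries. The sum is highest with ampicillin and mock gavage (1127 TPM), and the *Ckb* share is highest with tributyrin (9.52%).

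Around these genes, 6 lists of related function were followed, also chosen with earlier results known. Other phosphotransfer genes hold the remaining creatine kinases, adenylate and nucleoside diphosphate kinases, ADP/ATP carriers and porins. With ampicillin against vehicle, 3 of 12 tested were called higher and 1 lower (median 0.00), with 21.3% of all genes called. *Ak4*, a mitochondrial adenylate kinase, stood at 31.2 ± 2.40 TPM with ampicillin and 2.91 ± 0.964 TPM with vehicle (3.07 ± 0.172, limma adjusted p = 1.70e-05). *Slc25a4*, an ADP/ATP carrier of the inner mitochondrial membrane, stood at 131 ± 6.38 TPM with ampicillin and 81.2 ± 4.33 TPM with vehicle (0.69 ± 0.058, limma adjusted p = 0.000137). Both were again called higher with ampicillin and tributyrin against vehicle (2.38 ± 0.172 for *Ak4* and 0.89 ± 0.058 for *Slc25a4*). *Slc25a5*, the other ADP/ATP carrier of the list, was far more abundant, at 1577 to 1930 TPM, and was called in none of the 3 comparisons. *Ckmt2* was called in none of the 3 comparisons, at 1.77 ± 0.554, 1.69 ± 0.506 and 1.04 ± 0.216 TPM with tributyrin, with ampicillin and mock gavage, and with vehicle. For tributyrin against mock gavage 2 of 12 were called higher and 2 lower, with 23.2% of all genes called, and each of these 4 calls was lost without at least 1 library.

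The list of arginine and glycine supply, the substrates of *Gatm*, also holds genes that use them up, such as *Arg2* and *Amt*. A higher count in it is therefore not a higher supply. Its genes were called higher in 4 and lower in 5 of 21 cases with ampicillin against vehicle (median 0.03). Of all genes, 11.0% were called higher and 10.2% lower in that comparison. *Slc3a1*, a subunit of the carrier of cystine and dibasic amino acids, stood at 20.9 ± 3.97 TPM with ampicillin and 7.13 ± 3.15 TPM with vehicle (1.48 ± 0.234, limma adjusted p = 0.00277). *Cps1*, which feeds ammonia into citrulline synthesis, stood at 7.59 ± 0.398 and 18.4 ± 4.73 TPM in those groups (-1.14 ± 0.194, limma adjusted p = 0.00401). For tributyrin against mock gavage 6 of 21 were called higher and 1 lower (median 0.16, against 0.05 over all genes), beside 15.6% and 7.54% of all genes. *Amt*, of the glycine cleavage system, stood at 32.5 ± 2.72 TPM with tributyrin and 11.4 ± 0.461 TPM with mock gavage (1.43 ± 0.088, limma adjusted p = 0.000265). *Arg2*, the mitochondrial arginase, stood at 15.3 ± 0.824 and 7.02 ± 1.18 TPM (1.03 ± 0.208, limma adjusted p = 0.00992). *Phgdh*, which opens the route to serine and glycine, stood at 34.8 ± 2.15 and 17.2 ± 0.963 TPM (0.97 ± 0.070, limma adjusted p = 0.000317), and *Ass1*, of arginine synthesis, at 7.35 to 10.2 and 4.35 to 5.93 TPM (0.68 ± 0.129, limma adjusted p = 0.00755). Against vehicle, with 28.3% of all genes called, 7 of these 21 were higher and 2 lower with ampicillin and tributyrin.

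The list of methyl group supply holds genes that provide S-adenosylmethionine for *Gamt* or clear its product, and also genes that draw homocysteine off, such as *Cbs*. A lower count in it is therefore not a lower supply. Its genes were called lower in 5 of 11 cases with ampicillin and higher in 0 (median -0.03), where 10.2% of all genes were called lower and 11.0% higher. With quantile normalization, or rescaled without short RNA, 1 was called higher as well. *Mat2a*, which makes S-adenosylmethionine, stood at 132 ± 6.93 TPM with ampicillin and 179 ± 21.4 TPM with vehicle (-0.43 ± 0.088, limma adjusted p = 0.00905). *Ahcyl2*, a relative of adenosylhomocysteinase, stood at 233 ± 7.97 and 432 ± 46.5 TPM (-0.88 ± 0.080, limma adjusted p = 0.000180), and *Cbs*, which draws homocysteine off to cysteine, at 116 ± 3.97 and 167 ± 16.4 TPM (-0.52 ± 0.071, limma adjusted p = 0.00142). For tributyrin against mock gavage 4 were called higher and 2 lower (median 0.07), or 3 and 3 with quantile normalization, where 15.6% of all genes were called higher and 7.54% lower. *Mat2a* was among those higher, at 178 ± 10.3 TPM with tributyrin and 132 ± 6.93 TPM with mock gavage (0.43 ± 0.088, limma adjusted p = 0.0103). Against vehicle 4 of 11 were lower and 0 higher with ampicillin and tributyrin, where 9.21% of all genes were lower and 19.1% higher.

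Subunits of AMPK, the kinase that senses a falling ATP level, and their activators showed small differences. Of 10 tested, 1 was called higher and 0 lower with ampicillin, beside 11.0% and 10.2% of all genes. With tributyrin against mock gavage 3 were higher and 1 lower, beside 15.6% and 7.54% of all genes. Against vehicle 3 were higher and 0 lower with ampicillin and tributyrin, beside 19.1% and 9.21% of all genes. These shares also stand beside the counts of the lists that follow. *Prkab2*, a regulatory subunit, had the largest difference among those called (0.37 ± 0.086 against vehicle, limma adjusted p = 0.0145). That call was lost with quantile normalization (0.23, limma adjusted p = 0.0635). The tributyrin calls against mock gavage fell to 0 higher and 1 lower with quantile normalization. Of 12 ATP-driven pumps and motors, 2 were higher and 2 lower with ampicillin, and *Atp2b1*, the calcium pump of the plasma membrane, had the largest of these differences, at 50.2 ± 5.06 TPM with ampicillin and 98.9 ± 6.27 TPM with vehicle (-0.97 ± 0.076, limma adjusted p = 8.85e-05). In the same list 1 was higher and 3 lower with tributyrin against mock gavage, and 2 higher and 3 lower against vehicle. Of the other carriers of the family of *Slc6a8*, listed with the creatine carrier *Slc16a12*, which was below the filter, 5 of 17 were tested. The amino acid carrier *Slc6a14* stood at 76.2 ± 9.27 TPM with ampicillin and 45.5 ± 10.5 TPM with vehicle (0.75 ± 0.176, limma adjusted p = 0.0176), a call lost without vehicle replicate 1 (0.0569) or 3 (0.0556) or ampicillin replicate 3 (0.0649). With tributyrin it stood at 41.6 ± 7.61 TPM, against 76.2 ± 9.27 TPM with mock gavage (-0.87 ± 0.176, limma adjusted p = 0.0102), where *Slc6a8* differed by -0.15. In that comparison 1 of the 5 carriers was higher and 2 lower, and against vehicle 1 was higher and 1 lower.

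**Figure D5:**
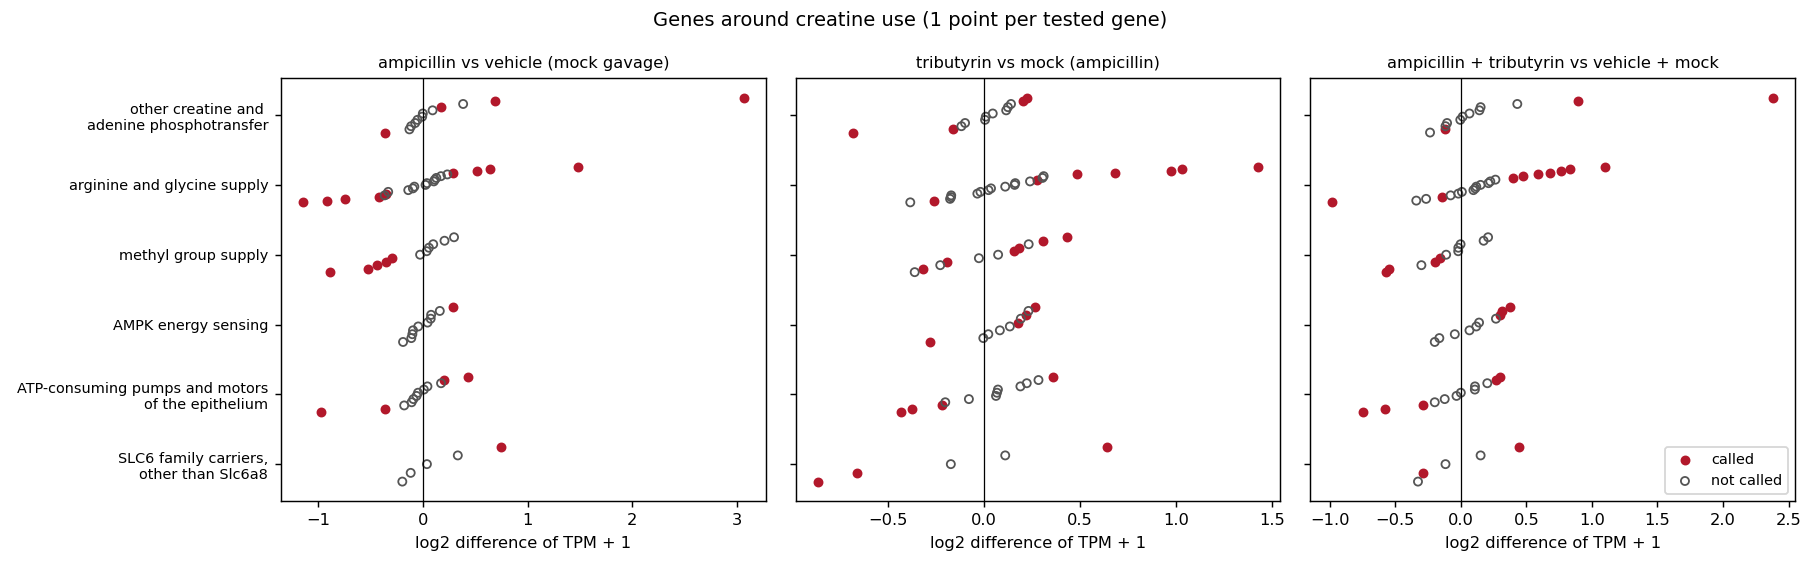
Log2 differences of TPM + 1 (horizontal axis) of each tested gene of 6 related lists (rows) in the 3 comparisons; filled points were called and open points were not. *Ak4* stands alone at 3.07 for ampicillin, and *Amt* is the rightmost point at 1.43 for tributyrin.

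Of 5 known targets of hypoxia-inducible factor, followed because it has been described to control creatine kinases, all 5 were called higher with ampicillin, beside 11.0% of all genes, and 4 were called lower with tributyrin against mock gavage, beside 7.54% of all genes. *Hk2*, a hexokinase, was at 47.6 to 64.4 TPM with ampicillin and 23.3 to 24.4 TPM with vehicle (1.14 ± 0.109, limma adjusted p = 0.000228), and at 35.6 ± 3.13 TPM with tributyrin (-0.58 ± 0.109 against mock gavage, limma adjusted p = 0.00731). *Egln3*, *Pdk1* and *Slc2a1* were likewise called higher with ampicillin, by 1.27, 0.40 and 0.35, and lower with tributyrin against mock gavage, by -0.72, -0.45 and -0.41. *Car9* was called higher with ampicillin (0.19 ± 0.052, limma adjusted p = 0.0330), a call lost without vehicle replicate 3 (0.105), ampicillin replicate 1 (0.0832) or 3 (0.111) or tributyrin replicate 1 (0.0511), and its difference of 0.11 with tributyrin was not called (limma adjusted p = 0.167). Whether the factor bears on the creatine genes here was not tested.

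The named protein-coding genes most like *Ckb* over the 9 libraries were found by the root mean square difference of log2(TPM + 1) after each gene was centred on its own mean. These were *Acta1*, an actin known from skeletal muscle (0.499), the chemokine *Ccl5* (0.579), the linker histone *H1fx* (0.595), the immediate early factor *Egr2* (0.596), the ADP-ribosyltransferase *Parp3* (0.597) and the stress cytokine *Gdf15* (0.601). *Ckb* itself varied by 1.134 about its mean on the same measure, so even the nearest gene followed it only in part. *Acta1* stood at 35.8, 41.0 and 36.1 TPM with ampicillin and tributyrin, 23.2, 22.5 and 21.7 TPM with ampicillin and mock gavage, and 10.2, 10.7 and 7.72 TPM with vehicle. Of 10899 genes ranked, *Gamt* was number 305, *Slc6a8* number 378 and *Ckmt1* number 2426, so no other member was close. The libraries share their groups, and this is a description.

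Smooth muscle and enteric neurons, which lie beneath the epithelium, are also known to express *Ckb*. All 9 epithelial markers were above 1 TPM in each group, and their sum was 12810 to 13730 TPM with ampicillin and tributyrin, 11697 to 12158 TPM with ampicillin and mock gavage, and 14373 to 16081 TPM with vehicle. With ampicillin against vehicle 7 of the 9 were called lower, among them the keratin *Krt20*, beside 10.2% of all genes. The call of *Krt19* was lost with no filter on low values (0.0538), and that of *Cldn7* with no filter (0.0653), with quantile normalization (0.0765), with only the 2 groups compared (0.0557), and without vehicle replicate 1 or 3, any 1 ampicillin replicate or tributyrin replicate 1 (0.0523 to 0.110). For tributyrin against mock gavage *Cdh1* and *Krt18* were called higher and *Cldn3* lower, beside 15.6% and 7.54% of all genes. With 1 library left out the first 2 calls held, and that of *Cldn3* was lost in 8 of 9 fits. Against vehicle 2 were higher and 4 lower with ampicillin and tributyrin, beside 19.1% and 9.21% of all genes. There *Cdh1*, *Krt18* and *Epcam* lost their calls in 3, 8 and 4 of 9 such fits. The part of these markers in the differences above was not tested. The 9 smooth muscle markers summed to 3.87 to 5.91 TPM with tributyrin, 5.11 to 6.03 TPM with ampicillin and mock gavage, and 5.63 to 5.94 TPM with vehicle, and 1 of them, *Tagln*, reached 1 TPM. *Myh11*, which defines smooth muscle, was at or under 0.0270 TPM. The 8 neuron and glia markers summed to 1.24 to 1.42, 1.14 to 1.30 and 0.806 to 1.10 TPM in the groups in that order, with *Sox10*, which defines enteric glia, at 0 in each library. The 9 fibroblast and endothelial markers summed to 1.45 to 1.98, 0.803 to 1.09 and 3.85 to 4.32 TPM. Most of each sum was *Pecam1*, at 1.11 to 1.66, 0.511 to 0.636 and 3.53 to 4.03 TPM. The other markers of this list were each at or under 0.238 TPM. *Pecam1*, the only 1 tested, was called lower with ampicillin and higher with tributyrin against mock gavage. It was called lower with ampicillin and tributyrin against vehicle. The 10 leukocyte markers summed to 19.1 to 30.0 TPM with tributyrin, to 12.8 to 17.2 TPM with ampicillin and mock gavage and to 14.2 to 16.7 TPM with vehicle. Of 6 tested, 2, the T cell genes *Cd3d* and *Cd8a*, were called higher with tributyrin against mock gavage, beside 15.6% of all genes. These calls were each lost without ampicillin replicate 1 or 2 or tributyrin replicate 1 or 2. That of *Cd8a* was also lost without vehicle replicate 3, with quantile normalization (0.0769) and with only the 2 groups compared (0.0601). Against vehicle the same 2 were called higher and 0 lower with ampicillin and tributyrin, beside 19.1% of all genes called higher. There the *Cd3d* call held with any 1 library left out, and that of *Cd8a* was lost in 6 of 9 such fits. The summed leukocyte markers were thus higher in the tributyrin libraries, as *Ckb* was, while their ranges overlapped between the mock-gavaged groups, and their part in the *Ckb* difference was not tested.

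Of the 5 members, 2 overlap other genes. *Ckmt1* overlaps *Strc* and *Gm33947* in the annotation, and *Slc6a8* overlaps *Gm32261*. *Strc* was at or under 0.145 TPM in each library. The predicted genes were not analysed here, and with the strand setting not given, reads of overlapping genes cannot be told apart. No gene overlaps *Ckb*, *Gatm* or *Gamt* in that annotation.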

How the data were processed

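RNA was measured in 9 of the 16 samples, and the other 7, chromatin immunoprecipitations and input, were not analysed here. The authors deposited TPM for every gene in each library. Named per the submitters' processing notes are Salmon 0.8.2, DESeq2 1.20.0 and build mm10, with no role for each. How reads were assigned, with what annotation and with what regard to strand, is not stated there. Groups and replicate numbers come from the sample titles. TPM keeps no depth, so no counting interval could be given.

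Genes with a mean of at least 1 TPM over the 9 libraries (12155 of 24091) were fitted as log2(TPM + 1) with 1 mean per group by limma 3.58.1 (R 4.3.3), leaving 6 residual degrees of freedom, with moderated variances with a trend, and Benjamini-Hochberg adjustment over all genes, two-sided. The fit was tested on simulated data.  Gene IDs were matched to RefSeq for GRCm38.p6, the same build as mm10 (24045 of 24091), for positions, and 4 of 5 members to its promoter table, which here excludes *Slc6a8*. The members, the 6 pathway lists, the 5 marker lists, the 5 hypoxia-inducible factor targets and the motifs were chosen with earlier results of these data known. Named genes were all members, up to 4 called genes per list and comparison by size of difference (fewer where a call rested on single libraries), the 6 genes most like *Ckb*, and 5 targets of hypoxia-inducible factor. Alternatives were other pseudocounts and filters, quantile normalization, rescaling without short RNA, no trend, only the 2 groups compared, the replicate number as a block, and leaving out each library. Figures used matplotlib 3.10.9 under Python 3.11.15.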

Additional observations from a re-analysis of the deposited data

How the results depend on the processing

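Of 249 values of the 5 members under the alternatives, 233 were counted as unchanged. Tested values had to keep their direction and side of the threshold. Untested values of members above the filter had to keep their direction and stay within the spread between replicates. For *Gatm* only the size of the shift was checked, so a reversal could not be counted. Its difference of ampicillin with tributyrin against vehicle ran from -0.162 to 0.025 with 1 library left out. Of the others, 12 lost a call, 4 moved by more than the spread between replicates, and 0 were counted as reversed. The *Ckb* difference for ampicillin (0.81) lost its call with no filter and with only the 2 groups compared, as did the *Gamt* difference of ampicillin with tributyrin against vehicle with only the 2 groups (0.50) and with quantile normalization (0.38). With 1 library left out, the first ran from 0.58 to 0.93 and the second from 0.38 to 0.58. Smaller pseudocounts raised differences of low genes: for tributyrin against mock gavage *Gamt* had 1.36 at 0.5 and 1.61 at 0.1, and at 0.1 *Gatm* had 0.58, and -0.75 for ampicillin, where the main values were 0.21 and -0.28.

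Replicate numbers are shared between groups, but deviations of same-numbered libraries correlated at -0.050 to 0.108, and 2, 4 and 4 of 6 libraries went best with their own number in the 3 comparisons, so the numbers were not taken as pairs. With the replicate block, 2707, 3009 and 3569 genes were called, against 2587, 2819 and 3444 without it, and no member changed its call. Leaving out 1 library gave 1587 to 3011 calls for tributyrin against mock gavage (1756 without ampicillin replicate 1, 1681 without ampicillin replicate 2, 1587 without tributyrin replicate 2) and 2093 to 3786 against vehicle (2093 without tributyrin replicate 2).

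Counts called in the lists are small and moved readily. For AMPK genes the count was 2 with no filter, 0 with a filter at 5 TPM and 0 with the replicate block for ampicillin, and for tributyrin against mock gavage 2 with no filter, 1 with quantile normalization and 2 rescaled without short RNA. For the carriers related to *Slc6a8* it was 1 with a filter at 5 TPM for tributyrin against mock gavage, and against vehicle 1 with that filter and 1 with only the 2 groups, which gave 3 for pumps and motors. With 1 library left out, the ampicillin counts ran from 0 to 1 (AMPK), 0 to 2 (carriers) and 2 to 4 (phosphotransfer). For tributyrin against mock gavage they ran from 0 to 3 (AMPK), 1 to 5 (pumps and motors), 1 to 6 (methyl supply) and 0 to 4 (phosphotransfer). Against vehicle they ran from 3 to 5 (pumps and motors), 0 to 2 (carriers), 2 to 6 (methyl supply) and 2 to 5 (phosphotransfer). The causes were not tested. Of 2093 values of other named genes, 243 lost a call, 1 gained one and 0 reversed.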
